A study of Mus musculus with 13 samples.

Results

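The 10 genes described here encode RNA-binding proteins that choose exons in muscle: Rbm24, Rbm38, Rbm20, Rbfox1, Mbnl1, Mbnl2, Celf1, Celf2, Ptbp1 and Ptbp3. They were taken by symbol from a table of 19838 mouse genes. Rbm24 was chosen because it was lower in dNdK muscle and Ptbp3 because it moved in opposite directions in the 2 tissues, so those values are described without a test. The other 8 were chosen as known muscle splicing regulators and neighbours of these, with earlier results of the same data in view.

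The study measured RNA in gastrocnemius (a hindlimb muscle) and aorta of mice aged 88 weeks on a mixed FVBxC57BL/6 background. There were 4 groups: 3 gastrocnemius libraries from dNdK mice, 4 gastrocnemius libraries from Rosa26 mice, 2 aorta libraries from dNdK mice and 4 aorta libraries from Rosa26 mice. The label gives dNdK mice the genotype GFP-FOXM1dNdKtg/+Rosa26-rtTAtg/+ and Rosa26 mice GFP-FOXM1dNdK-/-Rosa26-rtTAtg/+, so both carry the rtTA transgene, a transactivator that doxycycline switches on, and dNdK mice alone carry the FOXM1 transgene, a cell cycle transcription factor. By its title, the study concerns raised FOXM1 and ageing. The labels name no doxycycline treatment, and nothing says which libraries came from separate animals, so p-values measure the spread between these libraries.

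Muscle cells splice many sarcomere, ion channel and calcium-handling transcripts in a way other cells do not. RBM24, RBFOX1, RBM20 and the MBNL proteins favour the adult muscle pattern, while CELF1 and the PTB proteins favour the pattern of embryonic or non-muscle cells at many of the same exons. MBNL proteins are trapped on expanded repeat RNA in myotonic dystrophy, and RBM20 mutations cause dilated cardiomyopathy with misspliced titin. RBM24 and its close relative RBM38 also bind finished mRNAs, among them those for p53 and p21. They can change the stability of some of these mRNAs, such as that for p21.

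Each gene was read through a short amplicon, so the counts give the level of a gene's RNA and not its splice forms, and levels of different genes cannot be ranked against each other. Values are CPM, counts scaled to library size, further adjusted by TMM, a method that lines up the bulk of genes between libraries. In whole tissue, fewer cells of a type and less RNA per cell cannot be told apart.

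Libraries held 3919526 to 13683952 gene counts, at which 3 counts stood for 0.219 to 0.765 CPM before scaling. Foxm1 itself had 0 to 3 counts in each gastrocnemius library of both genotypes, and averaged 0.276 CPM in dNdK aorta and 0.722 CPM in Rosa26 aorta, a log2 fold change of -1.38 (SE 0.96, edgeR adjusted p = 0.763). Whether its amplicon reads the transgene is not given in the sources used here, so Foxm1 checks no genotype label. The gastrocnemius label is borne out by 13 skeletal muscle markers, which summed to 242073 to 405498 CPM there and 11.6 to 57.7 CPM in aorta. For the aorta label, 10 smooth muscle markers summed to 1147 to 2247 CPM in gastrocnemius and 250.2 to 500.0 CPM in aorta, a sum that genes also expressed in skeletal muscle enter. One by one, of 9 tested between the Rosa26 tissues, 4 were called lower in gastrocnemius (Actg2, Cnn1, Myocd and Acta2, at log2 fold changes of -2.63, -1.69, -1.63 and -1.10) and 2 higher (Synpo2 at 5.47 and Smtn at 1.88). In aorta, 7 brown adipocyte markers reached 6010 to 9157 CPM and 8 white adipocyte markers 11251 to 17356 CPM. The part of this adipose RNA in the differences between tissues was not tested. Aorta dNdK 2, Rosa26 1 and Rosa26 2 also held heart muscle RNA, with 15 markers summing to 3147, 3000 and 1303 CPM, against 11.8 to 24.4 CPM in aorta dNdK 1, Rosa26 3 and Rosa26 4. Gastrocnemius dNdK 3 held 13459 CPM of 8 white adipocyte markers, against 346 to 1090 CPM in the other gastrocnemius libraries, and had the lowest skeletal marker sum, 242073 CPM. Members' values without these libraries stand beside the results they bear on.

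The stretches just before the first annotated base of 3 members are shown because Rbm24 and Rbm38 lay lower in dNdK muscle while Ptbp1 lay higher there on average. They are RefSeq sequence of build GRCm38.p6, plus strand, 5′ to 3′. Capitals mark E-boxes, CANNTG, a pattern that reads the same on both strands and includes its GC-core form CAGCTG. Sites of MyoD-type factors have this pattern, but not every match is such a site.

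Rbm24 (chr13:46418050-46418101): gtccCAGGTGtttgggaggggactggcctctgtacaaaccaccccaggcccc

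Rbm38 (chr2:173021652-173021890): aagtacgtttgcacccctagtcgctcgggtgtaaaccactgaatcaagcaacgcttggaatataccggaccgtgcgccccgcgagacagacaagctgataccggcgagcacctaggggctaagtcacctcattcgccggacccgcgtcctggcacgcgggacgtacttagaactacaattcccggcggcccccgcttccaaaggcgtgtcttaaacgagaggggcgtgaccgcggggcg

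Ptbp1 (chr10:79854182-79854431): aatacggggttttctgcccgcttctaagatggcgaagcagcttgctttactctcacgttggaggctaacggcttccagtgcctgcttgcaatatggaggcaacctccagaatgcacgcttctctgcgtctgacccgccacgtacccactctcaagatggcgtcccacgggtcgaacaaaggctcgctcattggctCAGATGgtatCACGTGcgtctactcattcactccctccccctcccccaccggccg

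The Rbm24 stretch has 1 E-box in 52 bases, that of Rbm38 has 0 in 239 and that of Ptbp1 has 2 in 250. With such unlike lengths these counts cannot be compared. The full windows of 300 bases hold 2 for Rbm24, 0 for Rbm38 and 3 for Ptbp1. Rbfox1, also lower in dNdK muscle, has 0 in its stretch of 250 bases, which is not shown. Over the full RefSeq windows of 300 bases (250 before a start and 50 after), 8 of the 10 members had a window, and an E-box stood in 72.3% of all 32851 mouse windows, so a match is common. The GC-core form stood in 16.3% of all windows and in 1 window each of Rbfox1 and Ptbp1. The MEF2 box, CTA and TAG with 4 bases between (3.69% of all windows, the same on both strands), and the forkhead core TAAACA (13.4%, both strands searched) stood in 0 of the members' 14 windows. The cell cycle element TTTGAA, searched on both strands, stood in 17.9% of all windows, and among members in those of Rbfox1 and Celf2. These are matches of letters and nothing more.

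In gastrocnemius, Rbm24, Rbm38, Rbfox1 and Mbnl1 were lower in every dNdK library than in any Rosa26 library, Ptbp3 was higher in every one, and the other 5 members overlapped. None of the 8 members that could be tested passed. Rbm24 had 165, 180.0 and 246 CPM in dNdK muscle, against 529, 400.2, 384 and 544 CPM in Rosa26 muscle. Every dNdK library lay below every Rosa26 library. Its means were 197 ± 43.4 CPM in dNdK muscle and 464 ± 83.9 CPM in Rosa26 muscle (SD, n = 3 and 4), a log2 fold change of -1.21 (SE 0.23). This is the contrast Rbm24 was chosen on, so it carries no test. The gene spans chr13:46418102-46431099, and without dNdK 3 its log2 fold change was -1.41.

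Rbm38, the nearest relative of Rbm24 and itself a p53 target, had 377, 303 and 299.9 CPM in dNdK muscle, against 562, 578, 661 and 538 CPM in Rosa26 muscle. The groups did not overlap. The log2 fold change was -0.81 (SE 0.20), with an adjusted p of 0.656 by the edgeR quasi-likelihood test, which does not pass. Its unadjusted p, 0.00226, was the smallest among the 8 members tested.

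Rbfox1, whose protein marks exons for inclusion or skipping by where it binds, had 168, 159 and 126 CPM in dNdK muscle, against 307, 188, 214 and 261 CPM in Rosa26 muscle. Mbnl1, the main muscleblind protein of muscle, had 474, 718 and 587 CPM in dNdK muscle, against 749, 824, 955 and 807 CPM in Rosa26 muscle. Neither gene's groups overlapped, though for Mbnl1 the gap between dNdK 2 and Rosa26 1 was narrow. Their log2 fold changes were -0.65 (SE 0.23) for Rbfox1 and -0.47 (SE 0.20) for Mbnl1, each with an edgeR adjusted p of 0.656. Within Rosa26 muscle, libraries 1 and 4 had the most Rbm24 and the most Rbfox1.

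Ptbp3, a PTB paralogue that represses exons, had 22.4, 15.5 and 26.9 CPM in dNdK muscle, against 7.84, 12.1, 7.76 and 10.5 CPM in Rosa26 muscle. All dNdK libraries lay above all Rosa26 libraries. Its log2 fold change was 1.20 (SE 0.29), again a value it was chosen on. Ptbp1, the PTB protein that falls as myoblasts mature, had 16.8, 7.39 and 15.5 CPM in dNdK muscle, against 5.98, 7.16, 9.65 and 7.5 CPM in Rosa26 muscle. Here dNdK 2 lay among the Rosa26 libraries while dNdK 1 and 3 lay above them, and the log2 fold change was 0.83 (SE 0.34, edgeR adjusted p = 0.656).

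The other 4 members overlapped between the genotypes. Rbm20, the titin splicing repressor, had 74.4, 36.6 and 32.3 CPM in dNdK muscle, against 48.1 to 73.2 CPM in Rosa26 muscle. Its dNdK 1 library was the highest of the 7, while dNdK 2 and 3 were the lowest. Mbnl2, the second muscleblind gene, had 39.4, 39.1 and 71.2 CPM in dNdK muscle, against 29.1 to 55.7 CPM in Rosa26 muscle. Its high value lay in the library with adipocyte RNA, and the log2 fold change of 0.17 (SE 0.31) was -0.18 without it. Celf1, which opposes MBNL proteins at many exons, averaged 62.2 ± 11.6 CPM in dNdK muscle and 77.0 ± 8.12 CPM in Rosa26 muscle, and its relative Celf2 averaged 135 ± 32.3 CPM in dNdK muscle and 156 ± 38.2 CPM in Rosa26 muscle (SD, n = 3 and 4). Their log2 fold changes were -0.29 (SE 0.20) and -0.18 (SE 0.26), with edgeR adjusted p of 0.761 and 0.904.

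**Figure D1:**
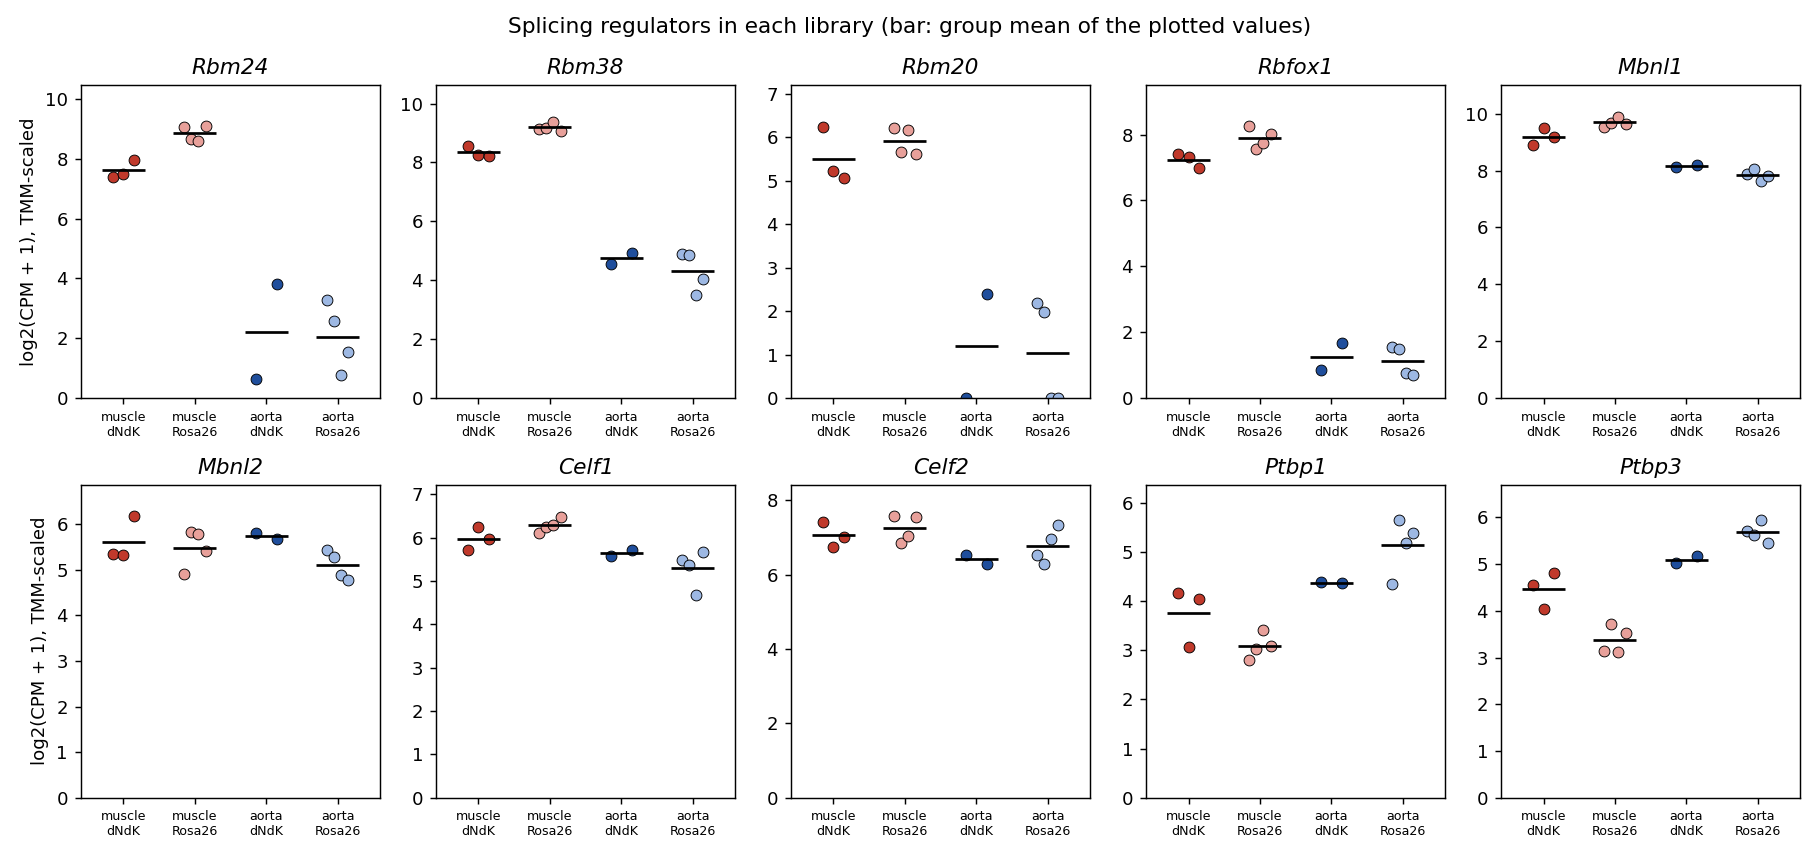
Level of each of the 10 genes in every library, as log2(CPM + 1) after TMM scaling. Dots are libraries, bars group means of the plotted values, and each panel has its own vertical scale starting at 0. The dNdK muscle dots lie below all Rosa26 muscle dots for Rbm24, Rbm38, Rbfox1 and Mbnl1 and above them for Ptbp3.

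Counted over members, 0 of the 8 that could be tested in gastrocnemius passed an edgeR adjusted p of 0.05, as did 0 of all 10491 genes tested (0%). At an unadjusted p under 0.05 there were 4 of 8 members, against 792 genes or 7.55% of all, and DESeq2 called 7 genes. Of all 10 members, 4 did not overlap and were lower in dNdK muscle (3.27% of all genes) and 1 did not overlap and was higher (2.72%), and Rbm24 and Ptbp3 are among these by choice. The median log2 fold change was -0.30 over the 10 members, the chosen Rbm24 and Ptbp3 among them, and 0.03 over all genes. This gap is described and not tested. The other 8 members were chosen with earlier results of these data in view, so no excess over all genes is read from these counts. Leaving out any of the 7 libraries kept the direction of 9 members, with Mbnl2 the exception.

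Rbm24 was also low and Ptbp3 also high in dNdK 1 and 2, whose adipocyte sums of 467 and 987 CPM lay within the Rosa26 range. Without dNdK 3, Rbm38 changed by -0.76, Rbfox1 by -0.54, Mbnl1 by -0.47, Ptbp1 by 0.69 and Ptbp3 by 1.01 on the log2 scale. Ptbp3 was highest in dNdK 3, and aorta, where adipocyte markers summed to 11251 to 17356 CPM, also had more Ptbp3 than Rosa26 muscle. The part of adipose RNA in the remaining differences was not tested. Of 13 skeletal muscle markers, 12 had lower and 1 a higher estimate in dNdK muscle, with a median log2 fold change of -0.29. The part of muscle RNA content in the members' differences was not tested either.

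**Figure D2:**
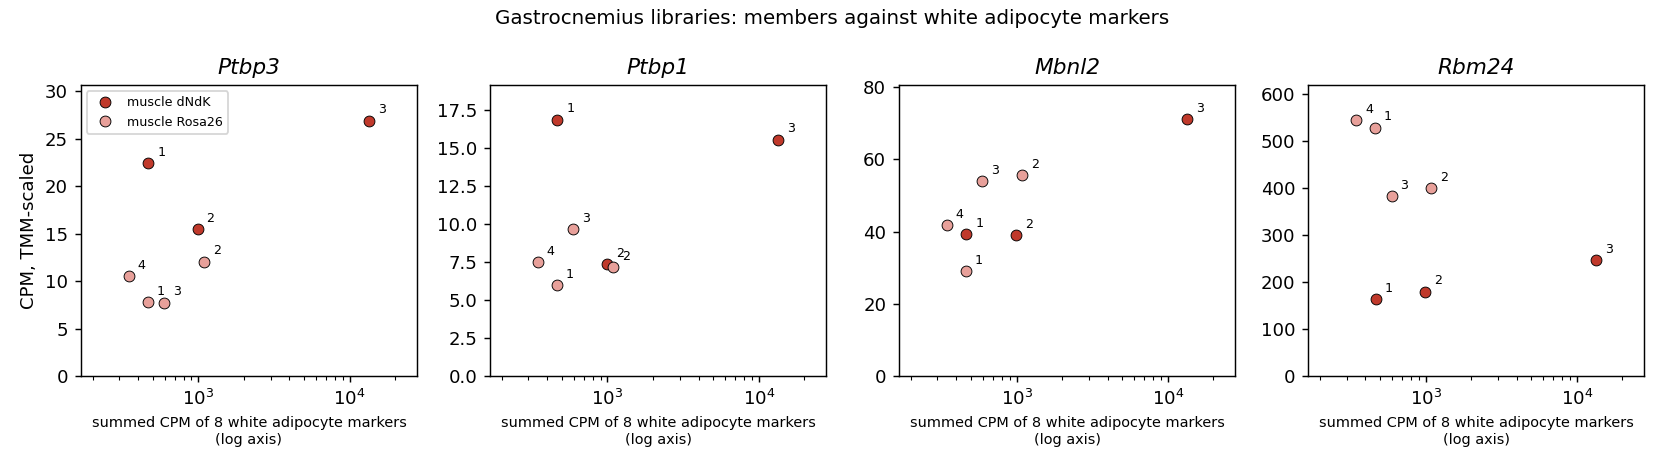
Levels of Ptbp3, Ptbp1, Mbnl2 and Rbm24 (CPM, TMM-scaled, linear axis) in the 7 gastrocnemius libraries against the summed CPM of 8 white adipocyte markers (log axis). Numbers are replicates. Library dNdK 3 stands apart at 13459 CPM, and Rbm24 is also low in dNdK 1 and 2, whose adipocyte sums of 467 and 987 CPM lie within the Rosa26 range.

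In aorta, 8 of the 10 members had an estimate of the opposite sign to gastrocnemius, Mbnl2 and Celf2 being the exceptions, and none that could be tested passed. Ptbp3 is among the 8 by choice, and Rbm24 was chosen on its gastrocnemius value. The share of all genes with opposite signs was not computed, so no reversal of the group is read from this count. For 3 of the 8 the sign rests on dNdK 2, a heart-marker library. Without it Rbm24 was at -2.84 and Rbfox1 at -0.61 on the log2 scale, and Rbm20 was also negative. That fit leaves dNdK 1 alone, at 6 Rbm24, 9 Rbfox1 and 0 Rbm20 counts. It keeps the heart-marker libraries Rosa26 1 and Rosa26 2 on the other side, so these signs are not free of heart muscle RNA. Ptbp3 had 31.4 and 35.0 CPM in dNdK aorta, against 51.6, 48.4, 60.9 and 43.1 CPM in Rosa26 aorta. Both dNdK libraries were below all 4 Rosa26 libraries, and the log2 fold change was -0.60 (SE 0.24), described only because the opposite directions chose the gene. Ptbp1 had 19.9 and 19.6 CPM in dNdK aorta, against 19.4, 49.1, 35.5 and 41.0 CPM in Rosa26 aorta. Rosa26 1 matched the dNdK libraries and the other 3 lay above them, giving a log2 fold change of -0.85 (SE 0.37, edgeR adjusted p = 0.757).

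Mbnl2 had 55.0 and 50.2 CPM in dNdK aorta, against 42.4, 38.0, 28.5 and 26.5 CPM in Rosa26 aorta. Mbnl1 had 282 and 294 CPM in dNdK aorta, against 235, 265, 197 and 226 CPM in Rosa26 aorta. Both muscleblind genes were higher in each dNdK aorta library than in any Rosa26 aorta library. The log2 fold changes were 0.66 (SE 0.26) for Mbnl2 and 0.35 (SE 0.21) for Mbnl1, both with an edgeR adjusted p of 0.757. Celf1 averaged 49.0 ± 2.86 CPM in dNdK aorta and 39.6 ± 10.6 CPM in Rosa26 aorta, and Celf2 averaged 84.3 ± 10.0 CPM in dNdK aorta and 113 ± 36.0 CPM in Rosa26 aorta (SD, n = 2 and 4), and both overlapped.

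Rbm24, Rbm20 and Rbfox1 were scarce in aorta, and their level went with the heart muscle markers. Rbm24 had 0.541 and 13 CPM in dNdK aorta, against 8.71, 4.99, 0.690 and 1.89 CPM in Rosa26 aorta. Rbm20 had 0 and 4.24 CPM in dNdK aorta, against 3.53, 2.92, 0 and 0 CPM in Rosa26 aorta. Rbfox1 had 0.811 and 2.16 CPM in dNdK aorta, against 1.95, 1.80, 0.690 and 0.631 CPM in Rosa26 aorta. For all 3 genes the 3 libraries with heart markers were above the 3 without, whatever the genotype. A count of 0 for Rbm20 allows up to 0.350 CPM in dNdK 1, 0.304 CPM in Rosa26 3 and 0.765 CPM in Rosa26 4, before scaling and for counting error only. Rbm38 had 22.6 and 29.4 CPM in dNdK aorta, against 28.6, 27.9, 10.2 and 15.3 CPM in Rosa26 aorta, again with the 3 heart-marker libraries on top but a smaller gap.

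The Rbm24 log2 fold change in aorta, 0.74 (SE 1.11), was -1.10 without the heart-marker libraries, which leaves 1 dNdK library against 2 Rosa26 libraries and assumes that the lone library varies like the others. Rbm38, at 0.37 with all libraries, was then at 0.88, and Rbm20 and Rbfox1 were not kept by the filter on low counts. Among the 9 members that could be tested in aorta, 0 passed, beside 1 of 11920 genes (0.00839%). Without adjustment 1 member, Mbnl2, and 713 genes (5.98%) had p under 0.05, and DESeq2 called 13 genes. Mbnl1 and Mbnl2 did not overlap and were higher, as for 7.73% of all genes, and Ptbp3 did not overlap and was lower, as for 9.51%. The median log2 fold change was 0.34 over the 10 members, the chosen Ptbp3 among them, and -0.05 over all genes. This gap too is described and not tested, and no excess over all genes is read from these counts.

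**Figure D3:**
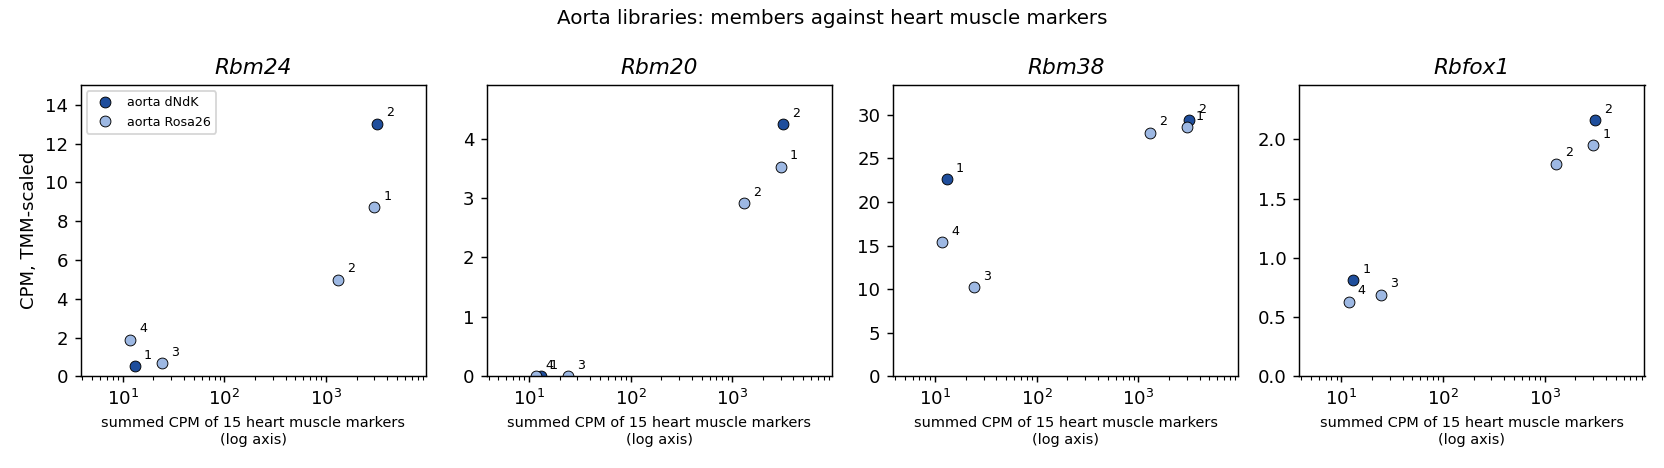
Levels of Rbm24, Rbm20, Rbm38 and Rbfox1 (CPM, TMM-scaled, linear axis) in the 6 aorta libraries against the summed CPM of 15 heart muscle markers (log axis). Numbers are replicates. Libraries dNdK 2, Rosa26 1 and Rosa26 2, at 1303 to 3147 CPM of heart markers, have the highest level of each of the 4 genes.

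Whether the genotype difference itself differed between the tissues was tested with an interaction term over all 13 libraries, given here as the effect in gastrocnemius minus the effect in aorta. Ptbp1 had a difference of effects of 1.65 on the log2 scale (SE 0.52), with an edgeR adjusted p of 0.583. Mbnl1 had -0.84 (SE 0.30) and Rbm38 -1.21 (SE 0.46), both also at an edgeR adjusted p of 0.583. Rbm24 had -1.98 (SE 1.13), which turned to 1.65 without aorta dNdK 2, a heart-marker library. That leaves aorta dNdK 1 alone against Rosa26 aorta libraries that still include heart-marker ones. Ptbp3 had 1.77 (SE 0.36). The values of Rbm24 and Ptbp3 hold the contrasts that chose these 2 genes and carry no test. So 0 of 8 members passed, as for all 12318 genes (0%), and DESeq2 called 6 genes. An unadjusted edgeR p under 0.05 was found for 3 of the 8, against 1044 genes (8.48%). These 8 were chosen with earlier results of these data in view, so no excess is read from this count. Over the 8 libraries that pair by a number in their deposited names, dNdK is 1 pair. Its gastrocnemius library is dNdK 3, with adipocyte RNA, so no count of calls is read from that fit. Within the PTB pair, the estimate was positive in gastrocnemius and negative in aorta for both genes, and the tested gene of the pair did not pass.

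**Figure D4:**
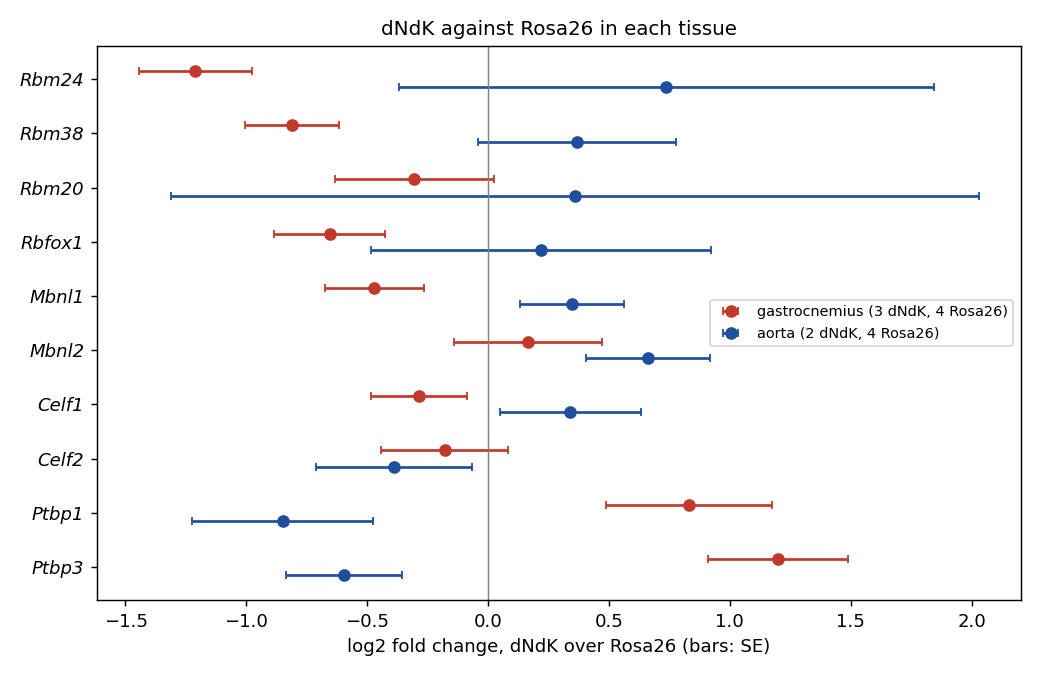
Log2 fold change of dNdK over Rosa26 for each gene, in gastrocnemius (3 dNdK and 4 Rosa26 libraries) and aorta (2 dNdK and 4 Rosa26 libraries), with bars for 1 SE. Rbm24 lies at -1.21 in gastrocnemius and 0.74 in aorta, where its bar is among the widest, and Ptbp1 and Ptbp3 lie right of 0 in gastrocnemius and left of it in aorta.

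Between tissues, 8 of the 10 members differed in Rosa26 mice, and 58.4% of all 11058 genes did, so the number of calls among members says little by itself. The sizes were large for the muscle-enriched members. Rbfox1 averaged 242 ± 52.3 CPM in gastrocnemius and 1.27 ± 0.703 CPM in aorta, a log2 fold change of 7.48 (SE 0.40, edgeR adjusted p = 2.4e-07). Rbm24 averaged 464 ± 83.9 CPM in gastrocnemius and 4.07 ± 3.58 CPM in aorta, a log2 fold change of 6.80 (SE 0.66, edgeR adjusted p = 1.27e-05). Rbm20 averaged 60.4 ± 13.3 CPM in gastrocnemius and 1.61 ± 1.88 CPM in aorta, a log2 fold change of 5.08 (SE 0.83, edgeR adjusted p = 0.000468). Without the heart-marker aorta libraries the Rbm24 log2 fold change was 8.73, and Rbm20 was then at 0 counts in all aorta libraries.

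Rbm38 averaged 585 ± 53.6 CPM in Rosa26 gastrocnemius and 20.5 ± 9.19 CPM in Rosa26 aorta, a log2 fold change of 4.83 (SE 0.35, edgeR adjusted p = 1.66e-06). Mbnl1 differed less, with 834 ± 86.9 CPM in gastrocnemius and 231 ± 28.0 CPM in aorta, a log2 fold change of 1.85 (SE 0.19, edgeR adjusted p = 1.52e-05). The PTB genes were lower in gastrocnemius: Ptbp3 averaged 9.54 ± 2.12 CPM there and 51.0 ± 7.47 CPM in aorta, a log2 fold change of -2.42 (SE 0.23, edgeR adjusted p = 9.53e-06). Ptbp1 averaged 7.57 ± 1.53 CPM in gastrocnemius and 36.3 ± 12.5 CPM in aorta, a log2 fold change of -2.25 (SE 0.31, edgeR adjusted p = 0.000135). All SDs in the tissue comparison of Rosa26 mice are over 4 libraries in each tissue.

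Celf1, Celf2 and Mbnl2 are the members whose tissue difference rests on the scaling. Scaling by library size alone in place of TMM lowered the median log2 fold change of all genes by 0.88 in this comparison. Celf1 averaged 77.0 ± 8.12 CPM in Rosa26 gastrocnemius and 39.6 ± 10.6 CPM in Rosa26 aorta, a log2 fold change of 0.97 (SE 0.22, edgeR adjusted p = 0.0035). Under library size alone it was 0.11 (edgeR adjusted p = 0.663) and the call was lost, while its adjusted p over all 16 alternatives ran from 0.000237 to 0.663. Mbnl2 at 0.42 (SE 0.25, edgeR adjusted p = 0.168) and Celf2 at 0.46 (SE 0.27, edgeR adjusted p = 0.166) did not pass, and became -0.46 and -0.40 under library size alone. Mbnl2 passed without gastrocnemius Rosa26 1 (0.60, edgeR adjusted p = 0.0484) and Celf2 without aorta Rosa26 4 (0.70, edgeR adjusted p = 0.0395). The other 7 members kept direction and call under library size alone. Thus 6 members were called higher in gastrocnemius (27.5% of all genes) and 2 lower (31%).

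In dNdK mice, with 3 gastrocnemius and 2 aorta libraries, 3 of the 10 members passed, all higher in gastrocnemius, against 15.8% of 11426 genes (10.5% higher and 5.22% lower). Rbfox1 averaged 151 ± 22.3 CPM in dNdK gastrocnemius and 1.49 ± 0.953 CPM in dNdK aorta, a log2 fold change of 6.61 (SE 0.56, edgeR adjusted p = 0.00326). Rbm38 averaged 326 ± 43.7 CPM in dNdK gastrocnemius and 26.0 ± 4.80 CPM in dNdK aorta, a log2 fold change of 3.62 (SE 0.35, edgeR adjusted p = 0.00408). Rbm24 averaged 197 ± 43.4 CPM in dNdK gastrocnemius and 6.79 ± 8.83 CPM in dNdK aorta, a log2 fold change of 4.82 (SE 1.21, edgeR adjusted p = 0.0454). That last call was lost without gastrocnemius dNdK 1 (edgeR adjusted p = 0.0699), without dNdK 2 (edgeR adjusted p = 0.107) and under library size alone (edgeR adjusted p = 0.0544). Without aorta dNdK 2, the heart-marker library, the Rbm24 value was 8.44, against aorta dNdK 1 alone. Over its alternatives the adjusted p of Rbm24 ran from 1.5e-05 by DESeq2 to 0.107 by edgeR.

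Mbnl1 (1.01, SE 0.33, edgeR adjusted p = 0.0885) and Rbm20 (4.43, SE 1.33, edgeR adjusted p = 0.0684) did not pass in dNdK mice. Rbm20 passed with no filter on low counts (edgeR adjusted p = 0.0375). It also passed with the replicate block on the title numbers (edgeR adjusted p = 0.0248), which do not pair these libraries. Leaving out aorta dNdK 2, the only heart-marker library here, leaves a lone aorta library at 0 Rbm20 counts, so no call is read there. Mbnl1 passed in 1 alternative, DESeq2 (adjusted p = 0.00976). For the PTB genes the dNdK tissue gap was smaller in size than in Rosa26 mice: Ptbp3 averaged 21.6 ± 5.75 CPM in dNdK gastrocnemius and 33.2 ± 2.56 CPM in dNdK aorta, a log2 fold change of -0.65 (SE 0.31, edgeR adjusted p = 0.183). Ptbp1 averaged 13.3 ± 5.12 CPM in dNdK gastrocnemius and 19.8 ± 0.239 CPM in dNdK aorta, a log2 fold change of -0.61 (SE 0.41, edgeR adjusted p = 0.329). Whether the tissue gap differs by genotype is the interaction given above, for which Ptbp1 did not pass and Ptbp3 carries no test. For Ptbp3 the smaller gap in dNdK mice follows from the opposite directions it was chosen on, so it is no separate result. Its tissue p-values in both genotypes come from the libraries that choice used.

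**Figure D5:**
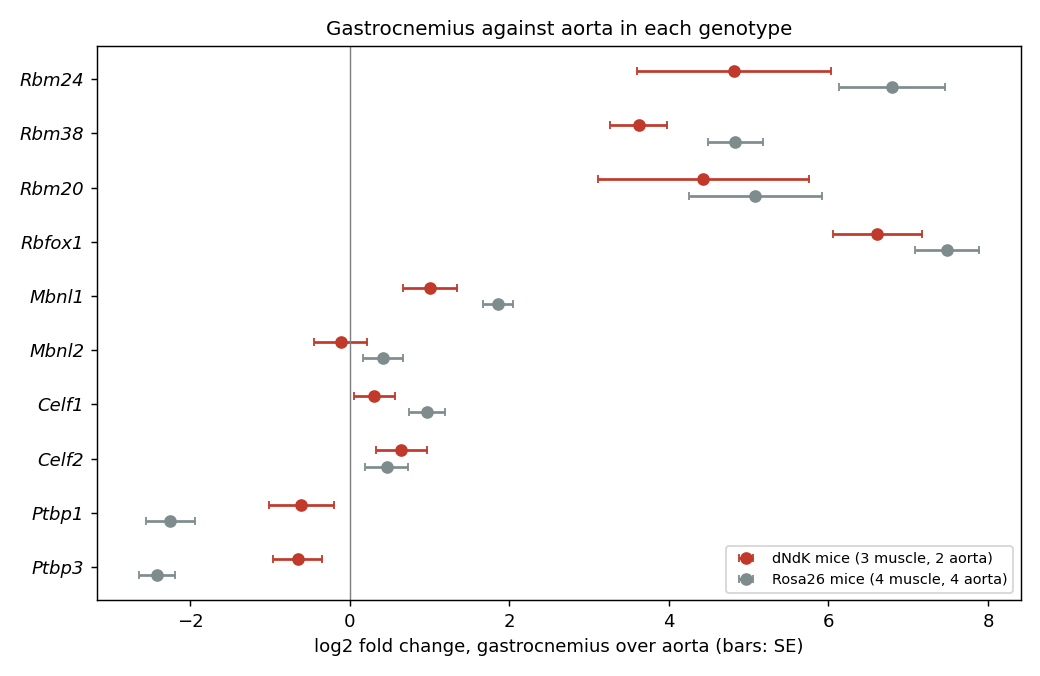
Log2 fold change of gastrocnemius over aorta for each gene in dNdK mice (3 gastrocnemius and 2 aorta libraries) and Rosa26 mice (4 and 4), with bars for 1 SE. Rbfox1 lies farthest right, at 6.61 in dNdK mice and 7.48 in Rosa26 mice. The PTB genes lie nearer 0 in dNdK mice, which for Ptbp3 follows from the directions it was chosen on.

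Other parts of the splicing machinery were followed with 6 lists. In gastrocnemius, 0 genes of any list passed for dNdK against Rosa26. Among 23 tested regulators of the same kind, 16 estimates were higher and 7 lower in dNdK muscle (53.1% and 46.9% of all genes), with a median log2 fold change of 0.10 against 0.03 for all genes. Among 18 SR proteins and their kinases, which help define exons, 14 were higher and 4 lower, with a median of 0.18. The 18 hnRNP proteins had 10 higher and 8 lower, with a median of 0.01, and the 30 core spliceosome genes 13 higher and 17 lower, with a median of -0.08. Without dNdK 3, the library with adipocyte RNA, the medians were 0.26, 0.19, 0.081 and -0.050, against -0.0020 for all genes, and higher and lower estimates numbered 15 and 8, 11 and 7, 11 and 7, and 10 and 20.

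Clk1, a kinase that phosphorylates SR proteins, had 35.6, 26.2 and 34.2 CPM in dNdK muscle, against 15.1, 20.2, 20.4 and 17.1 CPM in Rosa26 muscle. The groups did not overlap, and the log2 fold change was 0.84 (SE 0.23, edgeR adjusted p = 0.656). The other genes with the smallest p in these lists had log2 fold changes of 0.61 for Tra2a, 0.49 for Rbm25, 0.47 for Hnrnpm, -0.29 for Pcbp2, -0.69 for U2af2 (the large subunit of the factor that reads the 3′ splice site) and -0.31 for Prpf4. Rbpms2 was at 1.87, with 24.6 CPM in dNdK 3, the library with adipocyte RNA, and 1.68 to 4.14 CPM in the other gastrocnemius libraries, and was at -0.073 without that library. None of these genes passed.

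Of 34 tested muscle transcripts known to be spliced by the members, 25 had lower and 9 higher estimates in dNdK muscle, with a median of -0.36. Without dNdK 3, 22 were lower and 12 higher, with a median of -0.21. These are gene levels, not exon choices. Skeletal muscle markers summed to 391255, 329743 and 242073 CPM in dNdK muscle, against 366190 to 405498 CPM in Rosa26 muscle. Thus dNdK 1 lay within the Rosa26 range, and dNdK 2 and dNdK 3 lay below it. The part of muscle RNA content in the list was not tested. Nfix, a transcription factor whose exon choice depends on MBNL1, had 473, 938 and 682 CPM in dNdK muscle, against 1675, 1140.0, 964 and 1316 CPM in Rosa26 muscle. It did not overlap, at a log2 fold change of -0.85, and Atp2a2, the slow-muscle and heart calcium pump, did not overlap the other way, at 0.68, and without dNdK 3 these were -0.84 and 0.44. The 6 tested mRNAs reported to bind RBM24 or RBM38 had 4 higher and 2 lower estimates, with Trp63 at -0.46 and Mdm2 at 0.24 on the log2 scale, or -0.72 and 0.32 without dNdK 3.

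In aorta 0 genes of the 6 lists passed for dNdK against Rosa26. Of all genes, 45.8% were higher and 54.2% lower in dNdK aorta. Higher and lower estimates numbered 15 and 10 for related regulators, 8 and 10 for SR proteins, 12 and 6 for hnRNP proteins, 16 and 15 for the core spliceosome, 20 and 12 for spliced muscle transcripts, and 3 and 3 for bound mRNAs. Sf3b3, a part of the U2 particle, had 13.5 and 16.3 CPM in dNdK aorta, against 22.4, 26.6, 30.7 and 34.3 CPM in Rosa26 aorta, with no overlap and a log2 fold change of -0.91 (SE 0.27, edgeR adjusted p = 0.757). Cdkn1a, the p21 mRNA that RBM38 and RBM24 can stabilise, was at 0.74 and Trp53, the p53 mRNA, at -0.70 on the log2 scale, neither overlapping. Hnrnph3 was at 0.54, Hnrnpa2b1 at -0.53, Ptbp2 (the neuronal PTB gene) at 0.46, Srsf4 at -0.42, Clk3 at -0.58, Prpf6 at -0.64, Actn1 at -0.78 and Fxr1 at 0.42, and 0 of these passed.

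The interaction gave 0 calls in the lists as well. Its smallest unadjusted p in the lists was that of Clk1, with an effect in gastrocnemius minus that in aorta of 0.99 on the log2 scale (SE 0.32, edgeR adjusted p = 0.583). The next were Nfix at -1.05, Sf3b3 at 0.77, Srsf4 at 0.65 and Prpf19 at -1.04. In the paired fit of 8 libraries Rbm47 was at 4.16 (SE 0.55) and Rbpms2 at 3.46 (SE 0.52). Both were high in gastrocnemius dNdK 3, the only dNdK gastrocnemius library in that fit.

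Between the Rosa26 tissues the related regulators split, with 6 called higher and 6 lower in gastrocnemius of 25. Rbm47, an RNA-binding protein known from epithelia, had 0.934, 2.01, 0.696 and 1.00 CPM in Rosa26 gastrocnemius, against 40.6, 53.7, 28.1 and 29.2 CPM in Rosa26 aorta, a log2 fold change of -5.0 (SE 0.38, edgeR adjusted p = 2.24e-06). Rbpms2 was at -4.50 and its paralogue Rbpms at -2.64, and Fxr1, whose protein controls mRNAs of muscle, was at 2.5. Tnnt3, Neb and Atp2a1, muscle transcripts spliced by the members, were 13.05 to 15.85 higher on the log2 scale, and Ryr1, with 0 to 2 counts in each Rosa26 aorta library, is given no fold. Of 36 such transcripts 25 were called higher and 6 lower. Of the bound mRNAs 4 of 6 were called higher and 1 lower (0 without aorta Rosa26 1, 2 without aorta Rosa26 4), with Trp63 at 6.43 and Mdm2 at 1.61, and with Myog at 0 to 1 counts in each Rosa26 aorta library and 27.6 to 32.9 CPM in Rosa26 gastrocnemius.

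Calls for the general splicing machinery between tissues turned with the scaling. With TMM, 5 of 18 SR proteins were called higher and 4 lower in Rosa26 gastrocnemius, 5 of 18 hnRNP proteins higher and 0 lower, and 9 of 30 core spliceosome genes higher and 2 lower. With library size alone these were 0 higher and 13 lower, 0 higher and 9 lower, and 2 higher and 13 lower, and the related regulators had 2 higher and 15 lower. No direction is therefore read from these lists between tissues. With TMM and 1 library left out, the calls ran from 3 to 5 higher and 2 to 4 lower for SR proteins, from 3 to 5 higher for hnRNP proteins and from 0 to 1 lower for the core spliceosome. In dNdK mice the tissue comparison called 2 of 25 related regulators higher and 3 lower, 0 of 18 SR and 0 of 18 hnRNP proteins, 1 of 31 core spliceosome genes (Sf3a2), 19 of 36 spliced muscle transcripts higher and 2 lower, and 3 of 7 bound mRNAs higher. Fxr1 at 2.14 and Fxr2 at 2.34 were the related regulators called higher, and Khdrbs3 at -1.64 was among those called lower. These counts rest on few libraries: without aorta dNdK 1 no related regulator was called in either direction and 1 bound mRNA was called higher, without gastrocnemius dNdK 2 the spliced transcripts called higher were 11, and without gastrocnemius dNdK 3 the core spliceosome genes called higher were 5.

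Among the genes most like Rbm24 across the 7 gastrocnemius libraries, by Pearson's r of log2 CPM among 10331 genes, were Tmc7 (0.995), Fermt2 (0.981), Slc20a2 (0.973) and Zfp512 (0.962). Fermt2 had 205, 270.4 and 301 CPM in dNdK muscle, against 482, 397, 391 and 487 CPM in Rosa26 muscle. Those most like Ptbp3 were Vmac (0.987), Adss (0.979), Cldn15 (0.976), Sec23ip (0.972) and Rab13 (0.971). Rab13 had 44.2, 28.4 and 52.4 CPM in dNdK muscle, against 20.4, 28.9, 22.3 and 22.9 CPM in Rosa26 muscle. These values only describe the 7 libraries, which share depth, scaling and a gap between the genotypes, and the best of so many genes is bound to be close.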

How the data were processed

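The members and gene lists were chosen with earlier results of these data known. Total RNA was amplified with an AmpliSeq mouse primer pool and read on an Ion Torrent sequencer, per the labels' protocols, so reads carry no molecular identifiers. The deposited tables hold raw read counts per gene, 1 per library. The submitters' processing notes name STAR 2.5.2b, edgeR 3.28.1, limma 3.42.2 and the builds mm10 and GRCm38.p6. The count column of both strands was used, and 86.7% to 91.4% of counts were assigned to genes. Here, in R 4.3.3, genes kept by filterByExpr were scaled by TMM and tested with the quasi-likelihood test of edgeR 4.0.16, in each tissue or genotype alone or, for the interaction, over all 13 libraries, with Benjamini-Hochberg adjustment over all genes tested and a threshold of 0.05. Alternatives were DESeq2 1.42.0, RLE scaling, no filter on low counts, a replicate block, 1 fit over all libraries, each library left out and, chosen after seeing the data, library size alone the 6 Rosa26 libraries that share a number and, for the interaction, the 8 libraries that share one. List genes were named by smallest p (up to 4 past the threshold, otherwise 2). Mbnl3 was not analysed here. Some genes that the naming rule picks are not reported here. The replicate numbers of the titles gave correlations of both signs and are not read as pairs. They match a shared deposited number only for Rosa26 replicate 4, where both tissues carry number 30. Numbers in the deposited names shared by gastrocnemius and aorta of Rosa26 mice gave correlations of deviations of 0.28, 0.26 and 0.24. That shared by gastrocnemius dNdK 3 and aorta dNdK 1 gave 0.16. Title number 2, whose libraries share no deposited number, gave 0.30 between Rosa26 tissues and 0.14 between dNdK tissues. These correlations therefore do not single out the shared numbers. The 8 libraries were also paired on the shared number, though the labels do not say what the number is. With 1 such pair, the dNdK tissue comparison has no residual degrees of freedom for that block. Simulated counts with known changes were used to test the fits. Each group of 4 was checked for a single extreme library in each member, and 0 of 20 were found.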

Additional observations from a re-analysis of the deposited data

How the results depend on the processing

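For dNdK against Rosa26 in gastrocnemius the count of genes past the threshold was 0, with 7 under DESeq2 and 0 to 3 with a library left out. In aorta it was 1, with 13 under DESeq2, 0 in the fit over all libraries, 30 without the heart-marker libraries, 163 with the replicate block on the title numbers and 0 to 1 with a library left out. The interaction's 0 became 6 under DESeq2 and stayed 0 with any library left out. Over the 8 libraries with a shared deposited number, where dNdK is 1 pair, gastrocnemius dNdK 3 with adipocyte RNA and aorta dNdK 1, the interaction called 247 genes with the block on that number and 107 without it, and in both 0 members. There Rbm24 reversed to 1.29 and 1.80, Rbm20 to 5.14 and 5.74, and Celf2 to -0.012 with the block, while Ptbp1 was at 1.59 and 1.65 and Ptbp3 at 2.31 and 2.32. The dNdK tissue count of 1801 was 3141 under DESeq2, 3035 with the title block, 369 without the heart-marker libraries and 322 to 3126 with a library left out. The Rosa26 tissue count of 6462 was 6186 with the block on the shared deposited numbers and 5543 over the same 6 libraries without it, and that pairing changed no member's call. The title block, whose numbers do not pair the libraries, reversed log2 fold changes in aorta of Rbm24 to -0.85, Rbm38 to -0.087, Rbm20 to -1.53, Rbfox1 to -0.40 and Celf2 to 0.036. Without the heart-marker libraries Rbm24 was -1.10 in aorta. Library size alone moved the median of all genes by 0.13 in gastrocnemius, -0.14 in aorta, -0.88 between Rosa26 tissues and -0.58 between dNdK tissues. It reversed Mbnl2 to -0.46 and Celf2 to -0.40 between Rosa26 tissues and Celf1 to -0.28 between dNdK tissues. With a library left out, the log2 fold changes ran from -0.18 to 0.32 for Mbnl2 in gastrocnemius, and in aorta from -2.84 to 1.67 for Rbm24, -7.36 to 1.34 for Rbm20 and -0.61 to 0.74 for Rbfox1. The Rbm20 extremes come from libraries at 0 counts and are no bounds. The interaction ran from -2.91 to 1.65 for Rbm24, -1.62 to 6.81 for Rbm20, -1.39 to 0.0030 for Rbfox1 and -0.036 to 0.34 for Celf2, and Mbnl2 between dNdK tissues from -0.44 to 0.042. Rbm24 and Ptbp3 were left out of the member count where they carry no test. The count of tested members past the threshold was 0 in both genotype comparisons and the interaction. This held under every alternative with more than 1 library in each group. Between Rosa26 tissues it was 8, and 7 under library size alone, where Celf1 was lost, and 8 to 9 with a library left out. Causes were not tested.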

Other observations

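Myog, a myogenic factor whose mRNA RBM24 and RBM38 are reported to bind, varied more within dNdK muscle than between the genotypes. It had 68.1, 9.85 and 14.7 CPM in dNdK muscle, against 32.9, 27.6, 29.4 and 27.8 CPM in Rosa26 muscle. Cdkn1a varied likewise, with 277, 23.0 and 116 CPM in dNdK muscle, against 33.8, 179, 125 and 48.3 CPM in Rosa26 muscle. In both genes dNdK 1 was the highest of the 7 gastrocnemius libraries and dNdK 2 the lowest, while for Rbm24 these libraries had 165 and 180.0 CPM.

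Rbm47 was at 0.383 and 0.469 CPM in gastrocnemius dNdK 1 and 2, and at 24.1 CPM in dNdK 3, near its aorta level of 28.1 to 53.7 CPM. It was at 0.696 to 2.01 CPM in Rosa26 muscle. Library dNdK 3 also had 13459 CPM of white adipocyte markers, and their part in this value was not tested.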
